A study of Mus musculus with 6 samples.

Results

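A group of 10 genes of mitochondrial fusion and fission were followed by name in the count table: the mitofusins Mfn1 and Mfn2, the inner membrane GTPase Opa1, the fission GTPase Dnm1l (DRP1), its outer membrane receptors Fis1, Mff, Mief1 (MiD51) and Mief2 (MiD49), and the proteases Oma1 and Yme1l1. All 10 are among the 49315 genes counted and all 10 passed the filter on low counts that left 14370 genes to test. The samples were mid-ventricular heart tissue of adult mice, 3 labelled WT and 3 labelled TET2KO, a knockout of Tet2 described as specific to endothelial cells. Every mouse of both groups had received Angiotensin II at 1 mg/kg/day for 28 days from a minipump under the skin and no untreated heart is compared here. The sources used here do not give the promoter behind the deletion, the deleted exons, or the sex and exact age of the mice. Each group's 3 samples are described as biological replicates.

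Mitochondria join and divide through large GTPases of the dynamin family. MFN1 and MFN2 on the outer membrane tether and fuse neighbouring mitochondria, and OPA1 then fuses the inner membranes and also holds the cristae in shape. DRP1, the product of Dnm1l, is recruited from the cytosol by receptors on the outer membrane, forms a ring and constricts the organelle. YME1L1 and OMA1 cut OPA1 in the inner membrane, the first constitutively and the second under stress, and so set the balance of its long and short forms. The heart depends on these proteins for the renewal of its densely packed mitochondria, and MFN2 also links mitochondria to the sarcoplasmic reticulum.

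The windows of 250 bases before the transcription start are shown for the 5 genes with the largest differences in the comparison that follows, 3 that rose and 2 that fell, as RefSeq gives them on GRCm38.p6, 5′ to 3′ on the strand of the gene. Where RefSeq lists several starts, the most upstream was taken. They are chr4:147904910-147905159 (minus strand) for Mfn2, chr16:29579084-29579333 (plus) for Opa1, chr16:16359032-16359281 (minus) for Dnm1l, chr5:136953025-136953274 (plus) for Fis1 and chr1:82724640-82724889 (plus) for Mff. Capitals mark matches, on either strand, to 8 short motifs, some of which may overlap. They are the NRF1 core TGCGCA, the ERR motif AAGGTCA, the ETS motif CCGGAAG, the E-box CACGTG, the YY1 motif AAGATGG, the GC box GGGCGG, the CRE core TGACGTC and the CCAAT box.
Mfn2: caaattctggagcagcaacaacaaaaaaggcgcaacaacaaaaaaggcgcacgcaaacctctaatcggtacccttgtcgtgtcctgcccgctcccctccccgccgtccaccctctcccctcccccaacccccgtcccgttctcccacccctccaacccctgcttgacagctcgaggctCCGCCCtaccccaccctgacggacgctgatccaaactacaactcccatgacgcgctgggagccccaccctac
Opa1: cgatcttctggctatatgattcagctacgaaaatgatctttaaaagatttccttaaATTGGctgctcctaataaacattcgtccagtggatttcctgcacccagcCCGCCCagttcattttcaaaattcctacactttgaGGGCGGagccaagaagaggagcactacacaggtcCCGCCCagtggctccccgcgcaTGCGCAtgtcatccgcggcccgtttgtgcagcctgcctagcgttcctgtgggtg
Dnm1l: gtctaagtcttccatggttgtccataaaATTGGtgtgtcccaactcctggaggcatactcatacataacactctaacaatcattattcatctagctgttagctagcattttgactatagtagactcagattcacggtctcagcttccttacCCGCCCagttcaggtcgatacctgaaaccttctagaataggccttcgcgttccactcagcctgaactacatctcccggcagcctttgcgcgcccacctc
Fis1: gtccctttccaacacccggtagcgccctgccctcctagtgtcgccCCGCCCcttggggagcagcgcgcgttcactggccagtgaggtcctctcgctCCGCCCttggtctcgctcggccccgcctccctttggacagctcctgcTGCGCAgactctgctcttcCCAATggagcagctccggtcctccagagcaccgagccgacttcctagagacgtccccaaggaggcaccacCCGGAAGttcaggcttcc
Mff: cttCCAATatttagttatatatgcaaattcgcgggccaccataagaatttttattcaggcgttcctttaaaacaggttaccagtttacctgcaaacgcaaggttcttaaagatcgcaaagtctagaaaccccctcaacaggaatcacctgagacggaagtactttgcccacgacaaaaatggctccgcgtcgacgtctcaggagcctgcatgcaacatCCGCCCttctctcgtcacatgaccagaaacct
Promoters were matched for all 10 genes. The GC box was found in 10 of the 10 windows, against 33% of the 27025 promoters of the same length, and the CCAAT box in 7, against 34.5%. Those promoters were not limited to the genes tested here, and no share over the tested genes was taken. The ETS motif stood in 4 windows (Fis1, Mfn1, Mief1 and Yme1l1; 7.07% of all promoters), the NRF1 core in 3 (Opa1, Fis1 and Mief2; 6.67%) and the E-box in 1 (Mief2; 6.04%). The ERR, YY1 and CRE motifs were in 0 of the 10 windows and in 4.04%, 4.51% and 2.86% of all promoters. The GC box and the CCAAT box were shared by genes that rose and genes that fell, since Opa1, Dnm1l, Fis1 and Mff each held both. The windows held between 8 (Dnm1l) and 27 (Mief1) CpG dinucleotides, the sites at which TET enzymes act, against a median of 6 and quartiles of 2 and 16 over all promoters. Mfn2 held 16, Opa1 13, Fis1 18 and Mff 13. Methylation was not measured in these samples.

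Library totals lay between 22124844 and 30418909 reads. Tet2, the labelled target, had 4.27, 4.33 and 3.08 CPM (read counts scaled to library size with TMM factors) in the WT libraries and was higher in TET2KO, with 14.6, 8.01 and 10.4 CPM, so the label check went against the labels as counted (log2 fold change 1.49 ± 0.29 SE, edgeR adjusted p = 0.00652). With the trend on transcript length and GC content described further on removed, Tet2 stood at 0.27 ± 0.17 and did not pass (edgeR adjusted p = 0.21), and it was not lower in TET2KO in either estimate. Whole-gene counts of bulk tissue do not show the deleted exons in endothelial cells, and every direction given here follows the labels. The 10 cardiomyocyte markers were all present and summed to between 89680 and 110500 CPM in WT and between 52630 and 63000 CPM in TET2KO. Within that list Myh6, the adult alpha myosin heavy chain, rose (log2 fold change 3.45 ± 0.64, trend-removed 1.26 ± 0.27) and Myl2, the ventricular light chain, fell (-1.64 ± 0.34, trend-removed -0.52 ± 0.13). Summed markers of macrophages (651.6 to 779.1 against 263.5 to 413.6 CPM), red cells (1554 to 7038 against 164.8 to 740.9 CPM), endothelium (1920 to 2480 against 1287 to 1375 CPM) and smooth muscle and pericytes (2229 to 2376 against 1375 to 1992 CPM) also lay higher in WT than in TET2KO, while those of fibroblasts overlapped (1846 to 1940 against 1748 to 1950 CPM). In WT 1 gene made up most of the sum of macrophages (Lyz2, mean 567 CPM) and of endothelium (Fabp4, 1643 CPM). Rgs5 (1888 CPM) did so for smooth muscle and pericytes. Of the endothelial markers, Pecam1, Cdh5, Kdr and Tie1 rose as counted and Fabp4, Egfl7, Emcn and Cldn5 fell. Single markers passed the test in both directions in the cardiomyocyte list (4 higher and 5 lower of 10) and in the lists of endothelium (4 and 4 of 8), fibroblasts (3 and 4 of 8), smooth muscle and pericytes (3 and 3 of 8) and macrophages (2 and 3 of 8). Of the red cell markers 0 were higher and 5 lower of 5, of the skeletal muscle markers 0 and 2 of the 3 tested, and of the adipocyte markers 0 and 0 of the 2 tested. With the trend removed the counts higher and lower were 4 and 2 for cardiomyocytes, 3 and 1 for endothelium, 1 and 1 for fibroblasts, 3 and 3 for smooth muscle and pericytes, 1 and 3 for macrophages, 0 and 5 for red cells, 1 and 1 for skeletal muscle and 0 and 0 for adipocytes. Adipocyte markers summed to at most 5.27 CPM in each library, and Myh4 and Myh2 of skeletal muscle had fewer than 10 reads in each. The skeletal muscle sum (4196 to 5749 CPM in WT, 2381 to 3574 CPM in TET2KO) was nearly all Ckm, which heart muscle also expresses, and Tnnt3 and Mylpf reached at most 2.24 CPM. The levels of the 10 genes by cell type were not measured, and the part of cell composition in their differences was not tested. The marker sums above were of counts with the trend left in. With it removed, log2 fold changes went from -1.27 to -0.14 in Fabp4, -1.60 to -0.70 in Lyz2 and -0.70 to -0.46 in Rgs5. The median of the cardiomyocyte list went from -0.43 to 0.31. In bulk tissue, fewer cells of a type, less RNA per cell and the length and GC trend cannot be told apart in these sums.

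Of the 10 genes, 4 rose in the libraries labelled TET2KO (Mfn2, Opa1, Dnm1l and Mief1), 4 fell (Mff, Fis1, Yme1l1 and Oma1) and 2 did not pass the test (Mfn1 and Mief2). Across all tested genes 62.9% passed, 33.4% higher and 29.4% lower, so passing the test was common in these libraries and the count of 8 in 10 is not read as particular to these genes. The groups of libraries did not overlap in 9 of the 10, 5 higher and 4 lower, against 73.5% of all tested genes, 38% higher and 35.5% lower. The median log2 fold change was 0.12 over the 10 genes and 0.05 over all genes. By role and as counted, 3 of the 4 GTPases rose and 0 fell, 1 of the 4 fission receptors rose and 2 fell, and both proteases fell.

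**Figure D1:**
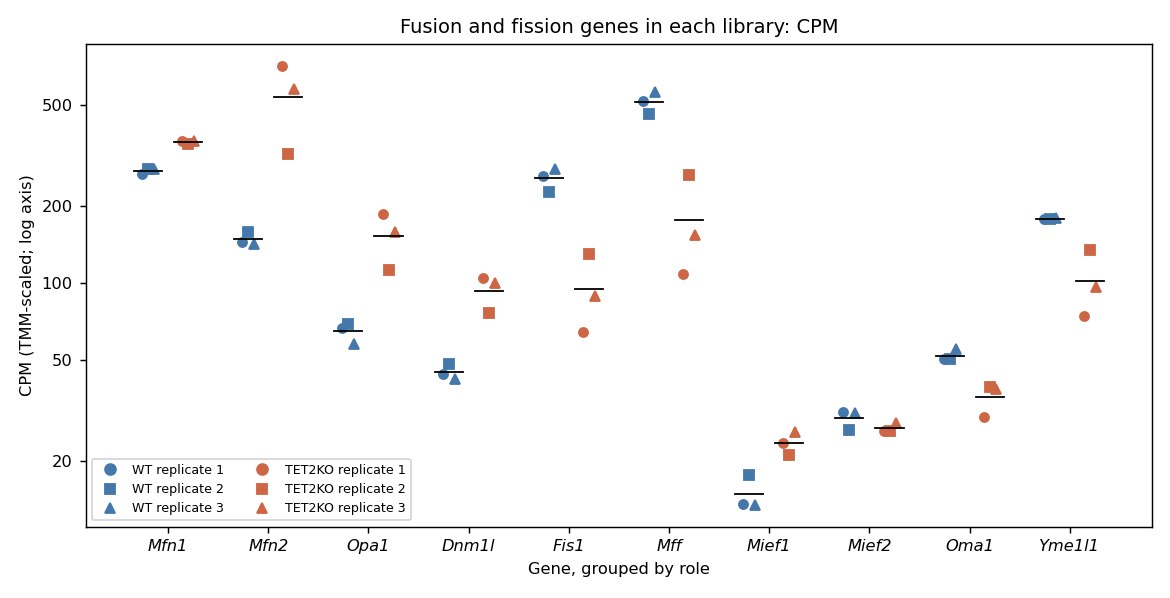
CPM of the 10 genes in each of the 6 libraries on a log axis, WT in blue and TET2KO in orange-red, with the marker shape giving the replicate and the black bar the mean of 3. Mfn2, Opa1 and Dnm1l stand higher in all TET2KO libraries and Mff and Fis1 lower, with TET2KO replicate 2 between the WT libraries and the other TET2KO libraries.

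Mfn2 (ENSMUSG00000029020, GRCm38 chromosome 4, 147873599 to 147904704, minus strand) had the largest rise of the 10. It was counted with 3013, 3890 and 2532 reads in WT and 26292, 9562 and 18093 in TET2KO. That is 145, 159 and 142 CPM against 709, 319 and 575 CPM, and the lowest TET2KO library was above every WT library. The mean rose from 148 ± 9.23 to 534 ± 198 CPM (SD, n = 3), 3.60-fold, with a log2 fold change of 1.85 ± 0.30 (edgeR adjusted p = 0.00652). Mfn1 (ENSMUSG00000027668, chromosome 3, 32529465 to 32579239, plus strand), its paralogue with the stronger tethering activity, was more even. It stood at 268, 279 and 280 CPM in WT against 362, 350 and 360 in TET2KO, close together within each group and not overlapping between them. Its log2 fold change of 0.37 ± 0.16 did not pass the test (edgeR adjusted p = 0.0731). It passed with DESeq2 (0.33), without TET2KO replicate 2 (0.41), with library totals in place of TMM factors (0.80) and on log2(TPM + 1) values (1.00).

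Opa1 (ENSMUSG00000038084, chromosome 16, 29579334 to 29654884, plus strand) rose with Mfn2. WT libraries held 66.5, 69.3 and 57.8 CPM and the TET2KO libraries had 186, 112 and 159. All 3 TET2KO libraries were above the WT range, with replicate 2 the lowest of them. The mean went from 64.5 ± 6.01 to 152 ± 37.2 CPM, a log2 fold change of 1.24 ± 0.22 (edgeR adjusted p = 0.00652). Counts per gene do not separate the splice forms of Opa1, of which GENCODE M21 lists 4 coding transcripts, nor the long and short proteins made from them.

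Dnm1l (ENSMUSG00000022789, chromosome 16, 16312230 to 16358959, minus strand), which carries out fission, rose as well. Its levels were 43.8, 48.1 and 42.1 CPM in WT against 105, 76.0 and 99.5 in TET2KO. The highest WT library was below the lowest TET2KO library. From 44.7 ± 3.07 to 93.4 ± 15.3 CPM the log2 fold change was 1.06 ± 0.18 (edgeR adjusted p = 0.00652). Mfn2 and Opa1, which act in fusion, and Dnm1l, which acts in fission, were thus higher in the same libraries. In M21 the antisense gene Gm49521 overlaps exons of Dnm1l, and reads of the 2 genes cannot be told apart where the counting took no account of strand.

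Fis1 and Mff, which encode outer membrane proteins of DRP1-driven fission, fell. Mff (ENSMUSG00000026150, chromosome 1, 82724890 to 82752394, plus strand), a principal receptor of DRP1, was the most counted of the 10 genes in WT. It stood at 519, 461 and 562 CPM in WT against 109, 265 and 155 in TET2KO, where the highest library was still well below the lowest of WT. The mean fell from 514 ± 50.6 to 176 ± 80.4 CPM, a log2 fold change of -1.54 ± 0.33 (edgeR adjusted p = 0.00697). Fis1 (ENSMUSG00000019054, chromosome 5, 136953275 to 136966234, plus strand), a small tail-anchored protein, went from 264, 227 and 281 CPM to 64.3, 130 and 88.6 CPM. Its mean fell from 257 ± 27.7 to 94.4 ± 33.4 CPM (-1.45 ± 0.27, edgeR adjusted p = 0.00652). In both genes TET2KO replicate 2 was the nearest to WT.

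The paralogous receptors Mief1 and Mief2, which encode MiD51 and MiD49, were the least counted of the 10 genes. Mief1 (ENSMUSG00000022412, chromosome 15, 80234018 to 80253371, plus strand) had 282, 433 and 241 reads in WT and 873, 632 and 821 in TET2KO, or 13.5, 17.7 and 13.5 against 23.6, 21.1 and 26.1 CPM. The groups did not overlap and the gene rose by 0.66 ± 0.18 on the log2 scale (edgeR adjusted p = 0.0155), a direction that turned once the length and GC trend described further on was removed. It missed the threshold when WT replicate 1 (0.58), WT replicate 3 (0.58) or TET2KO replicate 3 (0.62) was left out. Mief2 (ENSMUSG00000018599, chromosome 11, 60728398 to 60732951, plus strand) stood at 31.3, 26.4 and 30.9 CPM in WT against 26.3, 26.3 and 28.4 in TET2KO, overlapping, with a log2 fold change of -0.13 ± 0.15 (edgeR adjusted p = 0.458) that became 0.30 with library totals and 0.49 on log2(TPM + 1) values. In M21, AC140267.1, which was not used here, shares exon sequence with Mief1 on the same strand.

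Both proteases of OPA1 fell as counted. With the length and GC trend described further on removed, Yme1l1 stood at -0.47 and Oma1 turned to 0.04, not past the test. Yme1l1 (ENSMUSG00000026775, chromosome 2, 23156369 to 23199260, plus strand), an ATP-dependent protease facing the intermembrane space, was nearly constant in WT at 178, 179 and 180 CPM and spread from 74.2 to 135 CPM in TET2KO, where replicates 1, 2 and 3 held 74.2, 135 and 96.0 CPM. Its log2 fold change was -0.82 ± 0.23 (edgeR adjusted p = 0.018). Oma1 (ENSMUSG00000035069, chromosome 4, 103313812 to 103371868, plus strand), the stress-activated metalloprotease, had 50.4, 50.3 and 55.0 CPM in WT against 29.9, 39.0 and 38.3 in TET2KO (-0.54 ± 0.16, edgeR adjusted p = 0.0219; 0.09 on log2(TPM + 1) values). Neither group pair overlapped. Yme1l1 did not pass when any one WT library or TET2KO replicate 3 was left out (log2 fold changes from -0.83 to -0.74), and of the fits that left out 1 library Oma1 passed in the one without TET2KO replicate 2 (-0.59). With library totals in place of TMM factors neither passed, at -0.40 and -0.11, and Yme1l1 did not pass on log2(TPM + 1) values either (-0.21).

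The size of the difference was uneven among the TET2KO libraries. Replicate 2 was the nearest of the 3 to the WT mean in 9 of the 10 genes, the exception being Mief2, and replicate 1 the farthest in 8. Across all genes with reads in every library replicate 2 was nearest in 82.0% and replicate 1 farthest in 74.8%. Mfn2 stood 2.26, 1.10 and 1.95 above the WT mean on the log2 scale in TET2KO replicates 1, 2 and 3, and Mff stood at -2.24, -0.95 and -1.73. Without TET2KO replicate 2, 5 of the 10 genes were higher and 4 lower, against 75.1% of all genes past the test, 39.8% higher and 35.3% lower. With the trend removed as well, 3 were higher and 5 lower, against 58.4%, 27.8% and 30.6%. Without that library the log2 fold changes were 2.13 for Mfn2, 1.44 for Opa1, 1.21 for Dnm1l, -1.94 for Mff and -1.73 for Fis1.

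Fold changes in these libraries follow transcript length over all genes. In 10 equal bins of tested genes by length the median log2 fold change ran from -1.29 in the shortest to 1.38 in the longest, with Spearman's rho = 0.61 across 14346 genes. Over the 10 fusion and fission genes rho was 0.60 with the length of the longest coding transcript, as a description of points that share the same 6 libraries. With merged exon length rho was -0.018 over the 10 genes and 0.52 over all genes. Fis1, with a transcript of 948 nt, lay in the shortest bin and close to its median (-1.45 against -1.29). Oma1 (1915 nt, -0.54 against -0.50) and Mief2 (2522 nt, -0.13 against -0.17) also lay close to the median of their bins, and Opa1 (6230 nt) stood at 1.24 against 1.02. Mff lay far from it: at 2087 nt its bin had a median of -0.17, and Mff stood at -1.54. In all, 3 of the genes fell in 1 bin, 4165 to 4982 nt, with a median of 0.66, yet spread from 1.85 for Mfn2 (4341 nt) through 0.37 for Mfn1 (4562 nt) to -0.82 for Yme1l1 (4707 nt). The GC content of these 3 transcripts fell in the same order, 53.1%, 45.9% and 38.0%, while over all 10 genes rho of the fold change with GC content was -0.079.

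A second estimate therefore removed a smooth trend on transcript length and GC content from each library. Of the 10 genes, 3 then were higher (Dnm1l, Mfn2 and Opa1) and 4 lower (Mff, Mief2, Fis1 and Yme1l1), against 46.1% of all genes past the test, 21.8% higher and 24.3% lower. Dnm1l became the largest rise, at 1.43 ± 0.20 (edgeR adjusted p = 0.00398) against 1.06 as counted. Mfn2 stood at 0.67 ± 0.12 (edgeR adjusted p = 0.00421) and Opa1 at 0.62 ± 0.12 (edgeR adjusted p = 0.00471). Mff stood at -0.96 ± 0.19 (edgeR adjusted p = 0.00524) and Fis1 at -0.48 ± 0.12 (edgeR adjusted p = 0.0112). Mief2, which had not passed as counted, fell by 0.81 on the log2 scale (SE 0.16, edgeR adjusted p = 0.00537). Mief1 turned to -0.34 ± 0.18 and Oma1 to 0.04 ± 0.12, neither past the test, while Mfn1 was at 0.00 ± 0.11. In all 7 genes past the test the TET2KO replicate 2 library again stood nearest to WT, as in Dnm1l with 1.72, 0.89 and 1.56 above the WT mean for replicates 1, 2 and 3. Differences of technical and of biological origin that follow length or GC content cannot be told apart here, and the trend takes out both. With merged exon length in the trend the values were 1.02 for Mfn2, 0.94 for Opa1, 1.47 for Dnm1l, -2.19 for Mff, -0.89 for Fis1, -0.43 for Mief2 and -0.61 for Yme1l1, all 7 past the test.

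**Figure D2:**
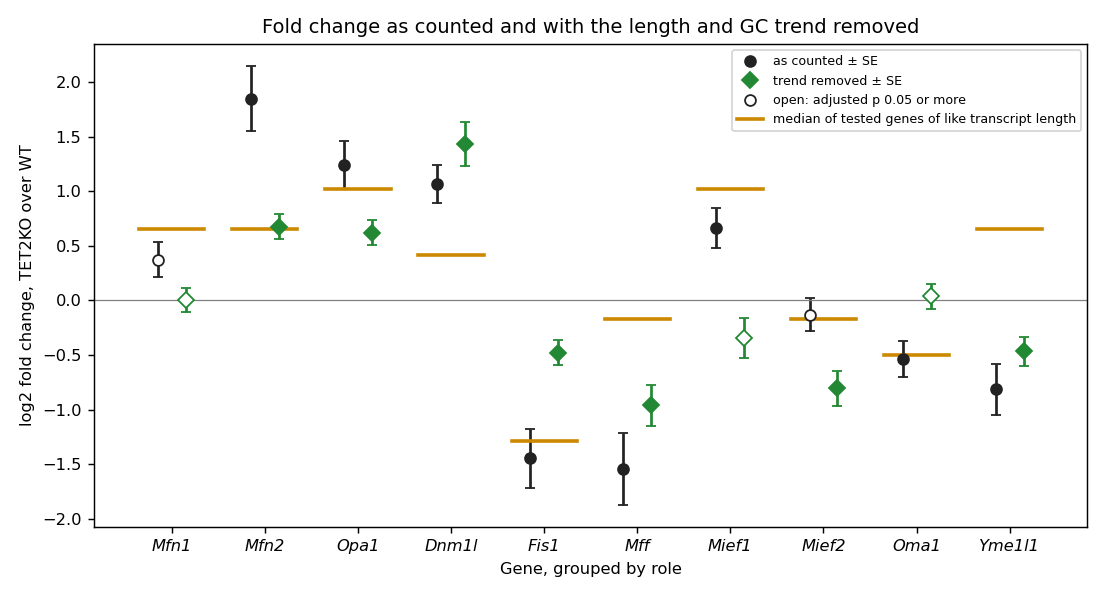
Log2 fold change of TET2KO over WT for each gene as counted (black circles) and with the length and GC trend removed (green diamonds), with bars for ± SE, open symbols where adjusted p was 0.05 or more, and an ochre line for the median of all tested genes in the same bin of transcript length. Mfn2, Opa1 and Dnm1l are above 0 and Fis1, Mff and Yme1l1 below 0 in both estimates, and Mfn1 moves to 0.

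Alternative fits left 5 of the genes nearly as they were called. Over 21 alternatives Mfn2 ranged from 0.62 to 2.38, Opa1 from 0.57 to 1.77 and Dnm1l from 1.01 to 1.63, each past the test in all 21. Mff ranged from -2.19 to -0.79 and passed in all 21. Fis1 ranged from -1.73 to -0.40 and passed in 20, the exception being the fit without WT replicate 3 and with the trend removed (edgeR adjusted p = 0.0512). The lowest value of Mff came from a trend on merged exon length, for which Mff counts 9757 nt against 2087 nt for its longest coding transcript. By contrast, 9 alternatives gave Mief1 and 9 gave Oma1 the opposite sign. With the sign kept, Yme1l1 lost its call in 10 of the 21, Oma1 in 9 and Mief1 in 3. Those of Yme1l1 include the trend-removed fits without any one WT library or TET2KO replicate 3 (edgeR adjusted p from 0.0593 to 0.0912).

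**Figure D3:**
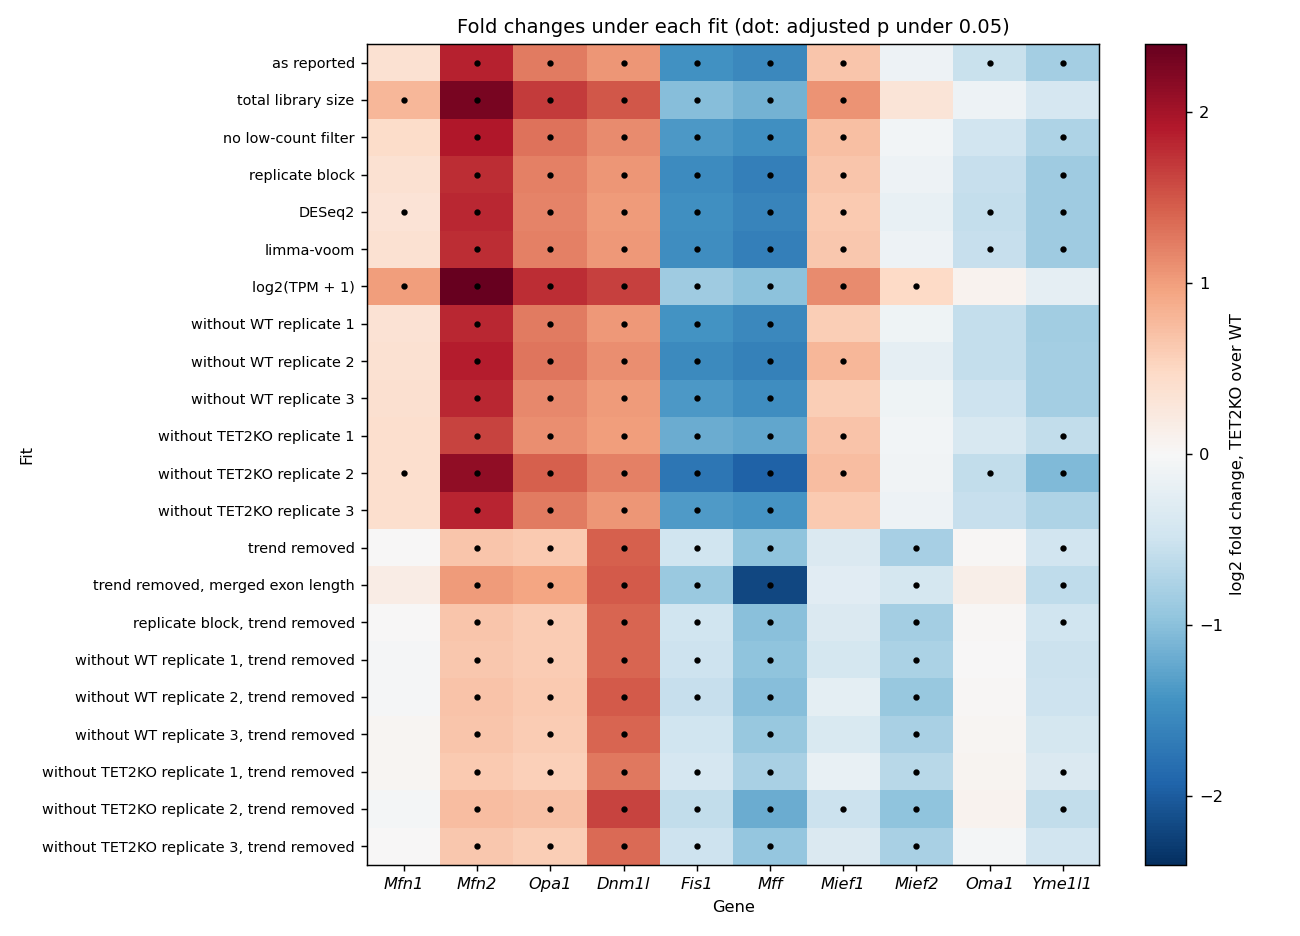
Log2 fold change of each gene (columns) in the reported fit and 21 alternatives (rows), coloured from blue (lower in TET2KO) to red (higher), with a dot where adjusted p was under 0.05. Columns Mfn2, Opa1, Dnm1l and Mff carry a dot in every row, while in the rows with the trend removed Mief1 turns from red to blue, Oma1 from blue to near white and Mief2 to a deeper blue.

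Ratios of 2 genes within a library do not move with library scaling, and 6 pairs were compared. With 3 libraries a group the smallest two-sided exact permutation p is 0.1, so none could reach 0.05. The counts of Mfn2 over Mfn1 gave ratios of 0.539, 0.569 and 0.507 in WT and 1.96, 0.911 and 1.60 in TET2KO, so that Mfn1 was the more counted mitofusin in every WT library and Mfn2 in TET2KO replicates 1 and 3. The difference was 1.40 on the log2 scale (exact permutation p = 0.1, adjusted p = 0.2 over 6 pairs) and 0.66 with the trend removed (exact permutation p = 0.1, adjusted p = 0.12), with no overlap of groups in either. Mief2 over Mief1 had count ratios of 2.31, 1.49 and 2.29 in WT and of 1.12, 1.25 and 1.09 in TET2KO, a difference of -0.79 with no overlap as counted (exact permutation p = 0.1, adjusted p = 0.2) and of -0.46 with overlap after trend removal (exact permutation p = 0.2).

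Ratios between fission and fusion GTPases depended on the trend. Dnm1l over Mfn2 was 0.303, 0.302 and 0.297 in WT and 0.148, 0.238 and 0.173 in TET2KO, a log2 difference of -0.72 (exact permutation p = 0.1) that turned to 0.72 with the trend removed. Dnm1l over Opa1 overlapped between groups as counted (-0.16, exact permutation p = 0.2) and stood at 0.78 after trend removal (exact permutation p = 0.1). The order of the rises of these GTPases thus differed between the 2 estimates. The receptor ratio Mff over Fis1 was 1.97, 2.03 and 2.00 in WT and 1.69, 2.03 and 1.75 in TET2KO (-0.14, exact permutation p = 0.4). With the trend removed it was lower in all 3 TET2KO libraries (-0.51, exact permutation p = 0.1). Oma1 over Yme1l1 overlapped as counted (0.31, exact permutation p = 0.2) and did not after trend removal (0.51, exact permutation p = 0.1).

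**Figure D4:**
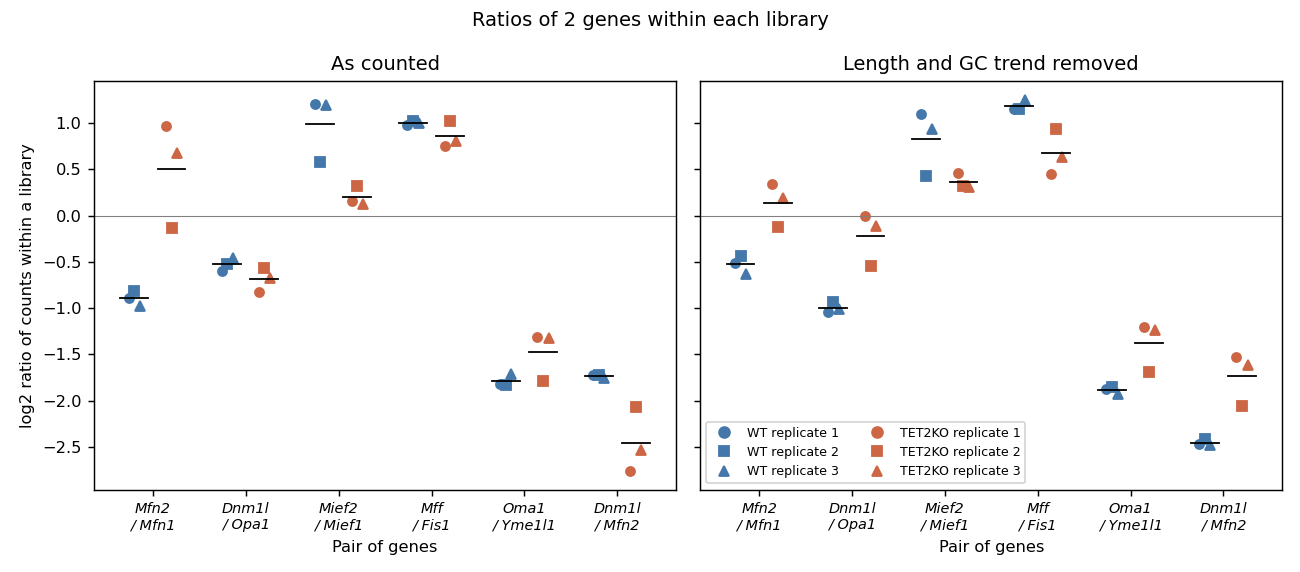
Log2 ratio of the counts of 2 genes within each library for 6 pairs, as counted (left) and with the length and GC trend removed (right), WT in blue and TET2KO in orange-red, marker shape for the replicate and a black bar for the mean of 3. Mfn2 over Mfn1 is higher in TET2KO in both panels, and Dnm1l over Mfn2 is lower on the left and higher on the right.

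Levels of different genes were compared on the authors' TPM values, which divide by length. In WT, Fis1 was the highest at 235 ± 6.59 TPM, followed by Mff (82.6 ± 1.34), Mfn1 (71.1 ± 6.47) and Mfn2 (45.2 ± 6.65). Oma1 (38.0 ± 2.00), Yme1l1 (35.2 ± 2.87), Dnm1l (17.2 ± 2.65), Mief2 (17.0 ± 0.708), Opa1 (13.0 ± 2.22) and Mief1 (4.28 ± 1.06) came after. The WT ranges of Mfn2 and Oma1, of Oma1 and Yme1l1, and of Dnm1l and Mief2 overlapped, and those of the other neighbours did not. In TET2KO the order opened with Mfn2 at 258 ± 116 TPM, whose libraries held 369, 137 and 268. Mfn1 (143 ± 16.0) and Fis1 (132 ± 34.7) came next, and the ranges of these 3 genes overlapped. Dnm1l (mean 56.3, libraries 68.9, 41.3 and 58.6), Opa1 (48.2 ± 16.0), Mff (43.1 ± 15.8) and Oma1 (40.5 ± 2.77) then overlapped each other. Yme1l1 (30.5 ± 6.43) overlapped Opa1 and Mff above it and Mief2 (24.3 ± 2.42) below it, and Mief1 (10.5 ± 1.70) was last.

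As a share of the summed TPM of the 10 genes, Fis1 took 43.0, 39.5 and 43.8% in WT and 11.4, 25.1 and 15.8% in TET2KO, and Mfn2 took 7.79, 9.14 and 7.30% in WT and 41.3, 20.3 and 33.9% in TET2KO. The 3 fusion GTPases together summed to 129 ± 15.2 TPM in WT and 450 ± 148 TPM in TET2KO, and Dnm1l with the 4 receptors to 356 ± 4.61 and 266 ± 32.5 TPM. These sums are descriptions. Dividing by a fixed length per gene does not take out the length and GC trend between the groups. With that trend removed from the counts, the log2 fold changes of Mfn1, Mfn2 and Opa1 were 0.00, 0.67 and 0.62. Those of Dnm1l, Fis1, Mff, Mief1 and Mief2 were 1.43, -0.48, -0.96, -0.34 and -0.81. Fis1, at a mean of 235 TPM, made up most of the WT sum of Dnm1l and the receptors. Within that sum the means of Fis1 and Mff were lower in TET2KO, while those of Dnm1l, Mief1 and Mief2 were higher. The length behind the TPM was the merged exon length for 8 of the 10 genes, which for Mff comes to 9757 nt, while for Dnm1l it was 4107 nt against 5203 nt merged and for Mief1 5541 nt against 8106 nt. On the TPM scale the median log2 fold change of all genes was 0.41 against 0.05 on CPM, and the TPM groups of Mief2 did not overlap.

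**Figure D5:**
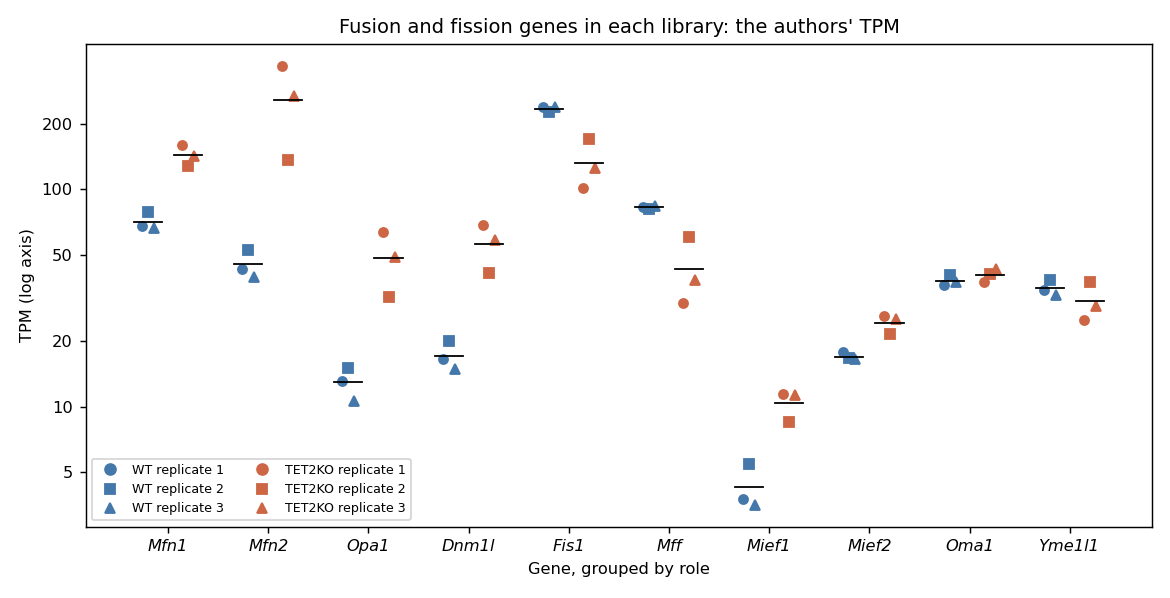
The authors' TPM of the 10 genes in each of the 6 libraries on a log axis, WT in blue and TET2KO in orange-red, marker shape for the replicate and a black bar for the mean of 3. Fis1 is the highest gene in WT at 235 TPM and Mfn2 has the highest mean in TET2KO at 258 TPM, with its 3 libraries spread from 137 to 369 TPM.

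The wider machinery was described from 5 lists of 47 other genes, of which 45 were tested. Of these, 16 rose, 18 fell and 11 missed the threshold, against 33.4% of all genes higher and 29.4% lower. Those shares are also the background for the as-counted numbers of each list below. With the trend removed 10 were higher and 19 lower, against 21.8% and 24.3% of all genes. Among 12 tested fusion and fission factors outside the 10 genes, 5 were higher and 4 lower, with a median log2 fold change of 0.27 (4 and 4 with the trend removed, median 0.27). Dnm2, the classical dynamin of membrane scission, rose from 10.2 ± 1.25 to 43.2 ± 19.1 CPM (2.08 ± 0.34, trend-removed 0.71 ± 0.15), and Miga2, a mitoguardin that promotes fusion, rose by 1.34 ± 0.23 (trend-removed -0.13 ± 0.14). Mtfr1, a fission regulator, fell from 169 ± 13.5 to 68.5 ± 26.2 CPM (-1.30 ± 0.28, trend-removed -0.92 ± 0.17). Mtch2, an outer membrane insertase, fell by 1.32 on the log2 scale (SE 0.29, trend-removed -0.97 ± 0.18).

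In a list of 9 genes of mitochondrial proteases, prohibitins and other inner membrane proteins 4 were higher and 5 lower, and with the trend removed 2 were higher and 3 lower. Afg3l2, the m-AAA protease subunit, rose from 33.9 ± 3.04 to 116 ± 38.7 CPM (1.77 ± 0.27, trend-removed 1.29 ± 0.18), and Lonp1, the matrix Lon protease, rose to 97.6 ± 47.5 CPM (2.29 ± 0.38, trend-removed 1.23 ± 0.21). Phb, a prohibitin subunit of the ring scaffold in the inner membrane, fell from 827 ± 89.7 to 345 ± 109 CPM (-1.26 ± 0.26, trend-removed -1.11 ± 0.19). Clpp, the matrix ClpP peptidase, fell by 0.88 on the log2 scale (SE 0.20), with a trend-removed value of -0.06 ± 0.10. The direction of Afg3l2 and Lonp1 was thus opposite to that of Yme1l1, a protease of the same membrane as Afg3l2.

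Of 11 genes of the MICOS complex, which forms the crista junctions, and its bridge to the outer membrane, 1 was higher and 7 lower, both as counted and with the trend removed, and the list median was -1.03 as counted and -0.51 trend-removed, against 0.05 and -0.03 over all genes. The 7 lower genes were not all the same in the 2 estimates. Chchd3 and Apool passed as lower only as counted (trend-removed -0.26 and 0.11). Samm50 (0.19 as counted, -0.88 trend-removed) and Mtx1 passed as lower only with the trend removed. The MICOS subunit gene Micos13, listed as 2410015M20Rik, fell from 565 ± 55.8 to 171 ± 70.8 CPM (-1.73 ± 0.31, trend-removed -0.59 ± 0.12), and Chchd6, another subunit, fell from 38.4 ± 4.31 to 13.7 ± 5.04 CPM (-1.48 ± 0.27, trend-removed -0.83 ± 0.16). Dnajc11, a J-domain protein of the bridge, rose by 1.35 ± 0.22 (trend-removed 0.66 ± 0.13). The median transcript length was 1617 nt in the list and 2996 nt over all genes.

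Regulators by ubiquitin, SUMO and dephosphorylation had 3 higher and 2 lower of 8 as counted, and 0 higher and 3 lower with the trend removed. Huwe1, a very large ubiquitin ligase that acts on mitofusins, rose by 2.21 ± 0.48 and Usp30, a mitochondrial deubiquitinase, by 1.67 ± 0.26, but neither passed with the trend removed (0.35 ± 0.16 and 0.27 ± 0.18). Park2, which encodes Parkin, fell from 13.9 ± 1.69 to 8.49 ± 1.22 CPM (-0.71 ± 0.20, trend-removed -0.97 ± 0.18), and Pgam5, a phosphatase that acts on DRP1, fell by 0.47 on the log2 scale (SE 0.17, trend-removed -0.09 ± 0.13). Of 5 genes of mitochondrial transport on microtubules, 3 were higher and 0 lower as counted, and 3 and 2 with the trend removed. The adaptor genes Trak1 and Trak2 rose by 2.30 ± 0.39 and 2.39 ± 0.39 (trend-removed 0.39 ± 0.11 and 1.28 ± 0.19). After trend removal 2 of this list, Rhot1 and Rhot2, the Miro GTPases, passed as lower (-0.40 ± 0.13 and -0.53 ± 0.12), named after their values were seen.

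The authors' deposited table holds 14370 genes, the same number as were tested here, of which 14196 are in both. In the authors' deposited table the 10 genes had the directions given above as counted, with log2 fold changes from -1.59 for Mff to 1.79 for Mfn2. By the authors' deposited table, Mief2 was the 1 gene of the 10 whose adjusted p was not under 0.05. The other 9 were under it, against 65% of all genes of the authors' deposited table, 33.6% higher and 31.4% lower. Its list of significant genes also asks for a log2 fold change of 1 or more in size, and held Mfn2, Opa1, Dnm1l, Mff and Fis1, against 43.5% of all genes of the authors' deposited table, 24% higher and 19.5% lower.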

How the data were processed

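Counts, TPM and a comparison table were available for 6 poly(A)-selected libraries, 3 per group. Per the submitters' processing notes the tools were STAR 2.5.2b, Trimmomatic 0.36, Subread 1.5.2 with featureCounts, and DESeq2, with GRCm38. For the annotation release and strand setting: not given in the sources used here. Raw read counts for each gene were deposited by the authors, with TPM values and tables of log2 fold changes with p-values whose library columns are a normalised signal, the counts divided by 1 size factor per library, as the deposited values show. TPM lengths matched merged exon lengths of GENCODE M21 within 1% for 80.1% of 6471 well-counted genes. Unmatched columns numbered 0.

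Counts were tested with edgeR 4.0.16 (quasi-likelihood, robust, TMM, filterByExpr, group only; Benjamini-Hochberg over all genes at 0.05). SE was derived from the log2 fold change and its F statistic. The trend (mgcv 1.9.3, basis size 6 per axis) used the longest coding transcript and its GC content in M21 and entered as offsets, for 14341 genes. The fits were also run on simulated counts that took their dispersions and trend from these data, and no result given here rests on that run. Such counts cannot show whether removing the trend is right for real differences that follow length. Pair ratios used counts plus 0.5 and scipy 1.17.1. Alternatives were DESeq2 1.42.0, limma 3.58.1, library totals, no filter, log2(TPM + 1), the replicate block and leaving out each library. The 10 genes, the lists and the trend removal were chosen with earlier results of these data known. Named beside the 10 genes were Tet2, Myh6, Myl2 and, per list and direction, the 2 called genes of smallest p whose average log2 CPM was 1 or more.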

Additional observations from a re-analysis of the deposited data

How the results depend on the processing

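Mfn2, Opa1, Dnm1l and Mff kept direction and call in all 21 alternatives, and of the 210 values of the 10 genes 151 kept both, 23 lost the call, 13 gained one and 23 changed sign. Mief1 turned to -0.34 with the trend removed, -0.28 with merged exon length, -0.35 with the replicate block and the trend removed, and from -0.51 to -0.18 when each library was left out with the trend removed (-0.42, -0.24, -0.37, -0.18, -0.51 and -0.35). Oma1 turned to 0.037, 0.13 and 0.033 in the same 3 fits, to 0.087 on log2(TPM + 1), and to 0.0015, 0.024, 0.050, 0.068 and 0.077 without each WT library and TET2KO replicates 1 and 2, trend removed. Mief2 turned to 0.30 with library totals and 0.49 on log2(TPM + 1). Mfn1 turned to -0.037, -0.022 and -0.045 without WT replicates 1 and 2 and TET2KO replicate 2, trend removed. With the trend removed Dnm1l over Opa1 turned to 0.78 and Dnm1l over Mfn2 to 0.72. The cause was not tested.

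Over all genes 4806 were higher and 4231 lower. The trend left 3126 higher (2704 with the replicate block), and leaving out 1 library gave 3370 to 5928 higher and 2479 to 5250 lower, the most without TET2KO replicate 2. With the trend removed as well, leaving out WT replicates 1, 2 and 3 gave 1976, 2279 and 2084 higher and 2233, 2604 and 2155 lower, and leaving out TET2KO replicates 1 and 3 gave 2321 and 2020 higher and 2543 and 2017 lower. Library totals gave 2270 lower and log2(TPM + 1) 1832, with the median of all genes at 0.47 and 0.41 and the share of calls that were higher at 74.2% and 79.6% against 53.2%. Of the 10 genes, 5 were higher with library totals and 6 on log2(TPM + 1), against 4 in the reported fit, and 2 were lower under each of these scalings. When 1 library was left out, 3 to 5 of the 10 were higher and 2 to 5 lower. Of the wider genes, 10 were higher with the trend removed, 9 with merged exon length, 8 with the block as well and 7 to 19 with 1 library left out, and 9 were lower on log2(TPM + 1) and 11 to 21 with 1 library left out, with or without the trend.

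The replicate numbers did not pair the libraries (correlations of same-numbered deviations 0.04, -0.23 and -0.01). With the replicate block 4070 genes were higher and 3548 lower, and 4 and 3 of the 10 genes, Oma1 missing the threshold at -0.55. Precision rests on 3 libraries per group.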
